A study of Mus musculus with 8 samples.

Results

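The genes described here were the mouse histone genes on the Illumina MouseRef-8 v2.0 BeadChip, chosen by name alone as every probe whose platform symbol began with Hist1h, Hist2h, Hist3h, Hist4h, H2af, H3f or H1f. This gave 72 of 25697 probes and 65 genes, of which 51 had a probe detected well enough to be tested. The 55 Hist genes (60 probes) hold the replication-dependent histones and a few testis forms, and the other 10 genes (12 probes) are histone variants. By class there were 9 genes for H1, 20 for H2A, 14 for H2B, 11 for H3 and 11 for H4. Current symbols are used below, with the older symbol given where a gene is described.

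Histones H2A, H2B, H3 and H4 form the protein core around which DNA is wrapped in the nucleosome, and H1 binds the linker DNA between cores. The replication-dependent genes lie in clusters and are transcribed mainly in S phase. Their mRNAs end in a stem-loop and not in a poly(A) tail. Many variant genes are instead expressed through the cell cycle and make polyadenylated mRNAs. Some Hist genes can also make polyadenylated transcripts, which matters here because the labelling kit primes cDNA synthesis on poly(A).

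The cells were mouse bone marrow mesenchymal stem cells (MSCs) bought from an academic stem cell core and used at passage 6. The control group was transfected with empty vector (EV), and the other group with a plasmid for Myc-tagged L63RhoA, a constitutively active form of the small GTPase RhoA. Each group had 4 arrays, stated in the design text to be independent experiments. The sample records put RNA extraction at 48 h after transfection and the methods at 3 days. Both groups thus went through the same lipid transfection of a plasmid, and neither the promoter that drives L63RhoA nor the share of cells that took it up is given in the sources used here.

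The only probe for Rhoa was not detected on any array, so the transfected gene could not be followed. Mean signal was 274 to 377 on the EV arrays, with EV replicates 2 and 4 the dimmest, and 320.1 to 350 on the L63RhoA arrays. Within the groups, 48.2% of the variance lay on 1 component. L63RhoA replicate 1 stood apart from its group there, at a score of 17.4 against -6.05, -4.56 and -6.76 for replicates 2 to 4. The EV arrays were spread, at -4.94, 10.8, -17.6 and 11.7 for replicates 1 to 4, with replicate 3 at the far end. Of the MSC markers with a probe, 10 of 12 were detected, among them Nes, Cd44 and Col1a1, while Thy1 and Lepr were not. The 10 had a median log2 fold change of -0.11 (L63RhoA minus EV), and none was called. Nes was at -0.26 with groups apart, Cd44 at -0.33 and Col1a1 at -0.40 (adjusted p 0.15, 0.17 and 0.23). Nt5e, Pdgfra and Col1a2 were above 0. Of 6 haematopoietic and macrophage genes with a probe, Cd14 and Cd34 were detected and Ptprc, Itgam, Adgre1 and Lyz2 were not, with a summed level over the 6 of 594 to 756 on the EV arrays against 668 to 772 on the L63RhoA arrays. Of 6 endothelial genes, Cdh5 and Tie1 were not detected, Pecam1 was detected on 2 arrays, Tek on 4, Kdr on 5 and Vwf on 8. The summed level of these 6 was between 147 and 156 in EV and between 150 and 213 in L63RhoA. The 3 tested had a median log2 fold change of 0.32 (L63RhoA minus EV), and none was called, although Tek was at 0.47 with groups apart (adjusted p 0.087). Of 4 adipocyte genes, Adipoq, Plin1 and Cidec were not detected and Lep was detected on 2 arrays, and the sums were between 76.3 and 80.2 in EV and between 77.8 and 86 in L63RhoA. These sums take in undetected probes, which still carry a background level: Adipoq, Plin1 and Cidec lay at log2 4.16 to 4.37. Of 4 osteoblast genes, Sp7 and Bglap2 were detected on 8 arrays, at 0.37 and 0.04 (adjusted p 0.30 and 0.87). Bglap and Ibsp were not detected. The part of other cell types in the histone values was not tested. In such bulk RNA, fewer cells of a kind and less RNA per cell cannot be told apart.

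Histone probes were seen more often than probes at large. A detection p-value under 0.05, meaning a signal above the negative control beads, was reached on at least 4 arrays by 55 of the 72 histone probes (76.4%) against 48.1% of all probes, and on all 8 arrays by 46 (63.9%) against 41.3%. No array detected 10 of the histone probes, as was true of 38.2% of all probes. H2A and H4 were covered best, with 18 of 20 and 10 of 11 probes detected on at least 4 arrays, and H1 least, with 4 of 10.

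**Figure D1:**
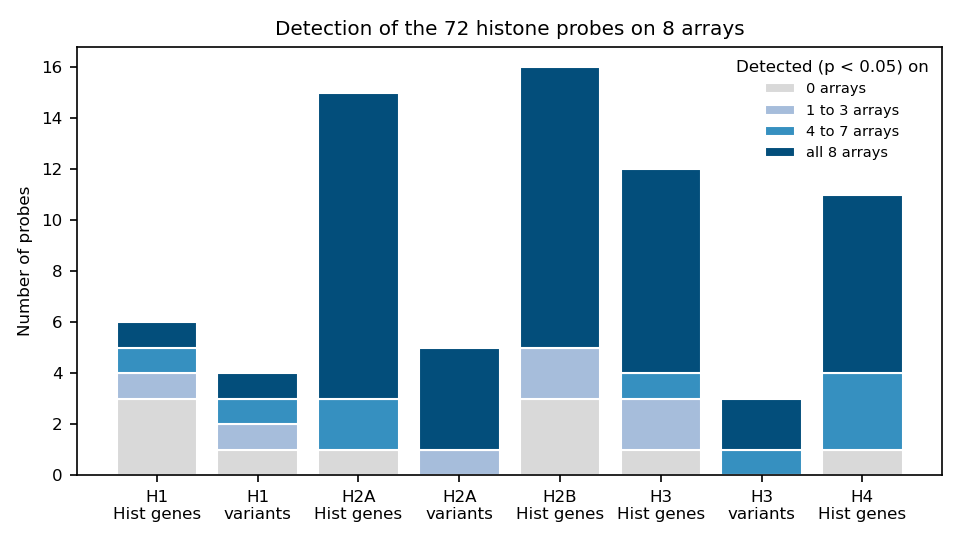
Number of histone probes (vertical axis) by class and kind, split by the number of arrays on which the detection p-value was under 0.05. Of the 72 probes, 46 were detected on all 8 arrays and 10 on none.

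The 14 genes without a test lay near background, at deposited intensities of 82.5 to 112. No probe for 9 of them was detected on any array (H1f1, H1f4, H1f6, H1f8, H2ac1, H2bc1, H2bc3, H2bu2 and H4f16), and the other 5 (H1f3, H1f7, H2al2a, H2bu1-ps and H3c3) were detected on 1 to 3. Among these were some of the forms known from testis, such as H1f6, H1f7, H2ac1 and H2bc1, and H1f8, the linker histone of oocytes. H1f7 was detected on 2 EV arrays and no L63RhoA array, and H2al2a on no EV array and 3 L63RhoA arrays. Another 21 protein-coding genes of these families had no probe named for them, including H1f0, H2az2, Macroh2a2 and H2bc21, and were not analysed here. Of the 51 tested genes, 44 were detected on all 8 arrays and 7 on 4 to 7 arrays (H1f5, H2ac4, H2aw, H3c10, H4c2, H4c4 and H4c14).

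In L63RhoA, 3 of the 51 histone genes were lower than in EV at an adjusted p under 0.05 (limma, Benjamini-Hochberg over 8360 genes), and none was higher. They were H4c8, H2ac18 and H2bc8, each of a different core histone class. Over all genes 0.706% were called, 0.323% lower and 0.383% higher. Without adjustment, 14 histone genes were below and 8 above at p under 0.05 (22 of 51). The same threshold took in 24.4% of all genes, 10.7% below and 13.7% above. Of the histone genes passing it, H2aw and H4c2 (below) and H2ac4, H4c4 and H4c14 (above) were detected on fewer than 8 arrays. The EV and L63RhoA arrays did not overlap for 8 genes on the lower side and 2 on the higher side, against 4.72% and 5.2% of all genes (9.93% for either side). The calls depended on single arrays: leaving out EV replicate 3 gave 11 called histone genes (21.6%, against 11% of all genes) and leaving out L63RhoA replicate 1 gave 10 (19.6%, against 15.1%), while leaving out any of the other 6 arrays gave 1, H4c8. Without the dimmest arrays, EV replicates 2 and 4, limma made no histone call, and 0.0837% of all genes were called. Before adjustment, 17 of the 51 histone genes were then at p under 0.05, against 791 of all 8360 genes. No other tool was run on those 6 arrays.

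Taken over all classes, the histone genes lay on both sides of 0. The median log2 fold change, written throughout as L63RhoA minus EV, was -0.04 over the 51 genes and 0.01 over all 8360, with 28 genes below 0 and 23 above (47.8% and 52.2% of all genes). By class the medians were 0.04 for H1, 0.13 for H2A, -0.21 for H2B, 0.02 for H3 and -0.15 for H4. They rest on 3 tested genes for H1, 18 for H2A and 10 each for H2B, H3 and H4. The 44 Hist genes had a median of -0.02 and the 7 variant genes a median of -0.12. The median standard error was 0.107 for histone genes and 0.117 for all genes, so these genes were measured about as precisely as the rest.

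**Figure D2:**
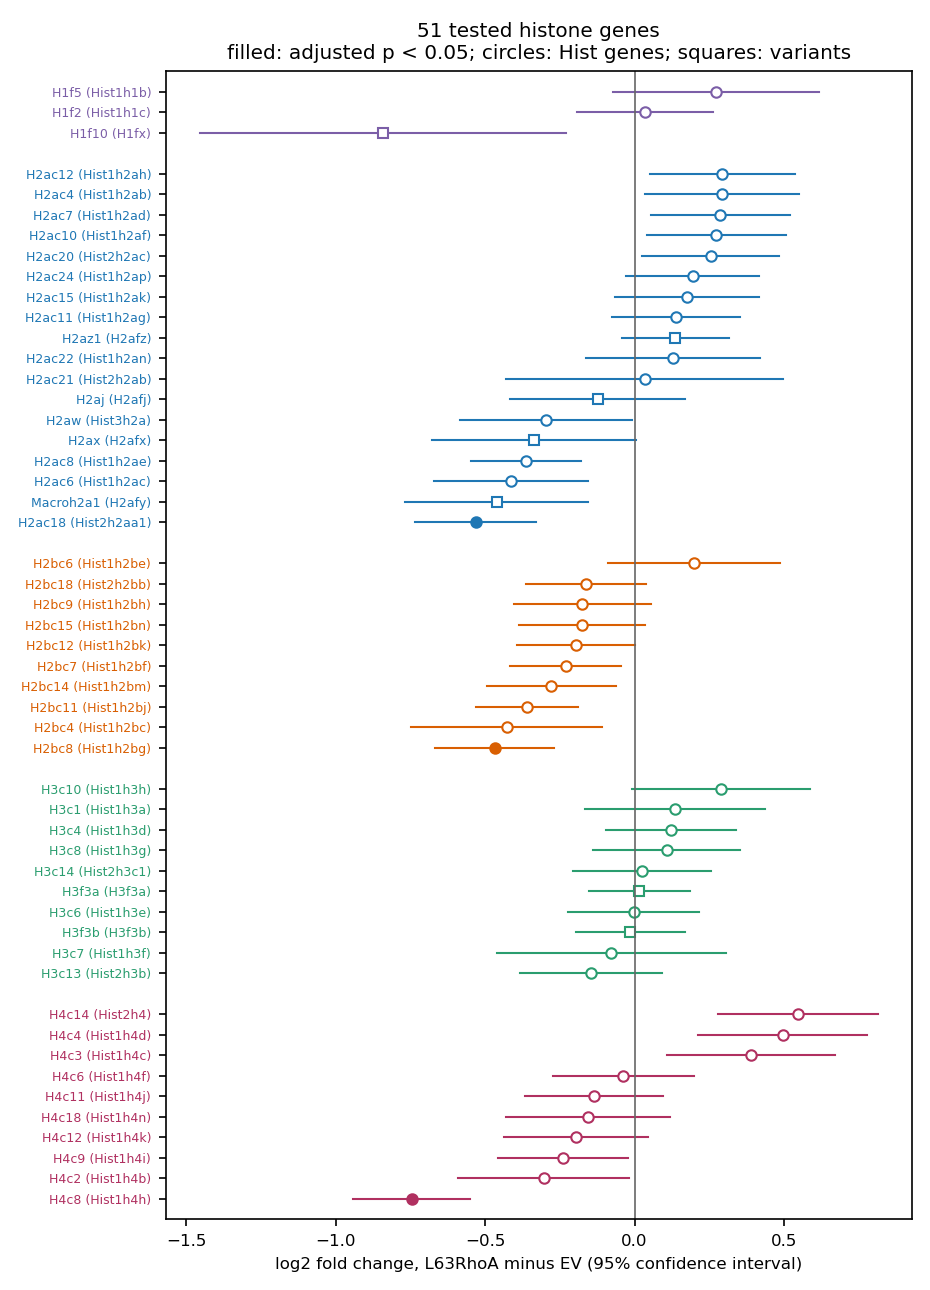
Log2 fold change (L63RhoA minus EV, horizontal axis) of the 51 tested histone genes with 95% confidence intervals, by class; circles are Hist genes, squares variants, and filled symbols an adjusted p under 0.05. H4c8, H2ac18 and H2bc8 are filled, and 9 of the 10 H2B genes lie left of 0.

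The gene position gave no simple split. Chromosome 13 holds 44 of the Hist genes here, 36 of them tested, with 19 below 0 and 17 above. On chromosome 3, which holds the smaller Hist2 cluster, 7 genes were tested, with 3 below 0 and 4 above, and they included both H2ac18 at -0.53 and H4c14 at 0.55.

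H4c8 (Hist1h4h), a chromosome 13 gene for histone H4, had the smallest p of any histone gene and ranked 9 of 8360. The heat map that the study drew from these arrays shows this gene under the name Hist1h4h, so the value is not independent evidence of its direction. Its log2 intensity was 9.26, 9.38, 9.23 and 9.41 on the EV arrays and 8.68, 8.54, 8.48 and 8.59 on the L63RhoA arrays. Every L63RhoA array lay below every EV array, and the gap between the groups was wider than the spread within either. The means were 9.32 ± 0.088 and 8.57 ± 0.088 (SD, n = 4 each), a log2 fold change of -0.75 (SE 0.088), or a level 1.68-fold lower (95% interval 1.47 to 1.92), with an adjusted p of 0.0041. An exact permutation test over the 8 arrays gave a two-sided p of 0.029, the smallest that 4 against 4 allows. H4c8 was called in 22 of 23 other settings, counting separately the authors' processed values and no background correction, which gave the same values. The exception was the fit without EV replicates 2 and 4, in which the fold change was -0.67 and the adjusted p 0.091.

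**Figure D3:**
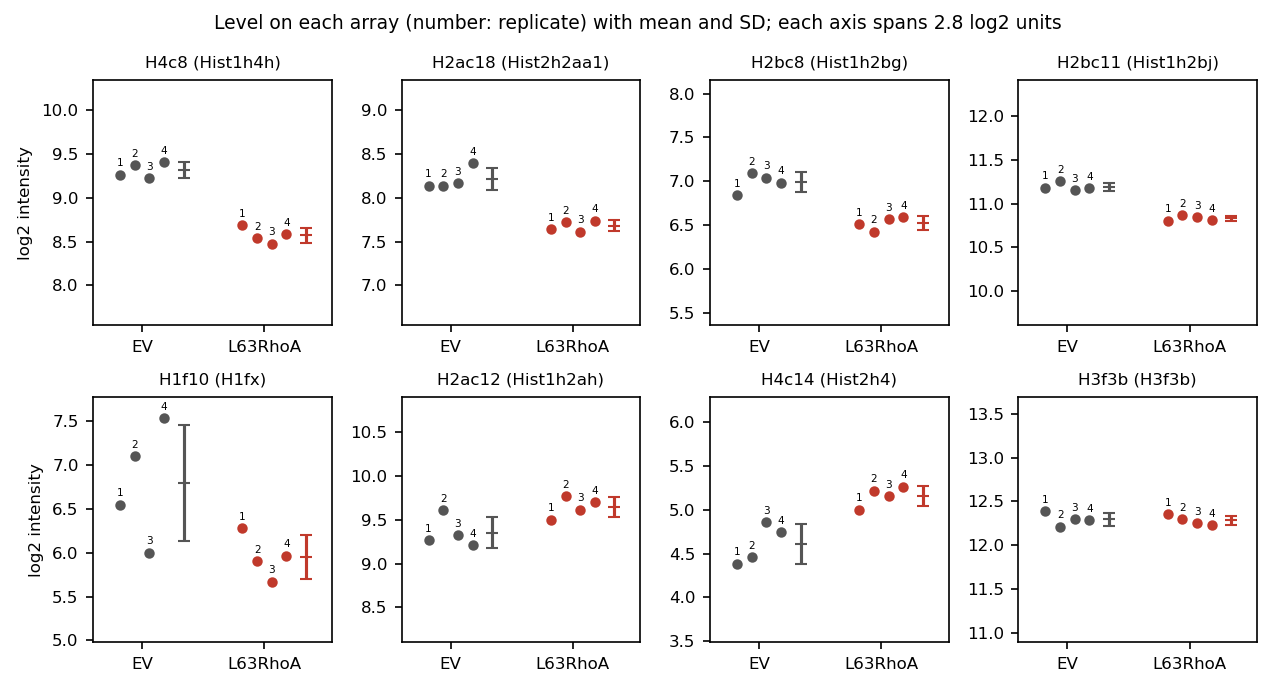
Log2 intensity (vertical axes, each spanning the same width) of 8 histone genes on each EV and L63RhoA array, numbered by replicate, with mean and SD (n = 4). The groups are apart for H4c8, H2ac18, H2bc8, H2bc11 and H4c14 and overlap for H1f10, H2ac12 and H3f3b.

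The H4 genes encode the same protein from separate promoters, and these promoters carry an element near the start that ends in GGTCCG, shown in capitals in the stretches below, which are printed because H4c8 is the H4 member that fell. Each is 31 bases on the coding strand, 5′ to 3′, from RefSeq on GRCm38.p6. They were read from windows of 250 bases before to 50 after the annotated start.
H4c8, plus strand, chr13:23531014-23531044: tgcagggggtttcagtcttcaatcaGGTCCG
H4c9, minus strand, chr13:22041403-22041433: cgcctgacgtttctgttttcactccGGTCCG
H4c18, minus strand, chr13:21832238-21832268: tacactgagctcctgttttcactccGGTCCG
H4c3, minus strand, chr13:23698499-23698529: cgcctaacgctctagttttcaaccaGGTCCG
H4c4, plus strand, chr13:23581496-23581526: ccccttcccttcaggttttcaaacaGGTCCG
H4c6, minus strand, chr13:23551709-23551739: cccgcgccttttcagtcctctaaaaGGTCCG
H4c11, plus strand, chr13:21734991-21735021: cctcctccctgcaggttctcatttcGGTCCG
H4c12, minus strand, chr13:21750580-21750610: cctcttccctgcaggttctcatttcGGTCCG
GGTCCG, searched on both strands, was in 10 of 10 H4 windows and in 8.25% of all 32851 windows. H4c2, also tested, held it but is not among the stretches. Since all stretches were lined up on GGTCCG, these letters match in every pair. H4c11 and H4c12 were identical at 30 of 31 bases and had log2 fold changes of -0.14 and -0.20. H4c8 matched H4c9 at 22 of 31 bases, H4c18 at 21, and H4c3 and H4c6 at 20. The log2 fold change was -0.75 for H4c8, -0.24 for H4c9, -0.16 for H4c18, 0.39 for H4c3 and -0.04 for H4c6. The position relative to the annotated start also varied, with the last base at 1 in H4c8, -13 in H4c11, -27 in H4c12 and -41 or -42 in the other 5.

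Further upstream, the H4c8 window held the palindrome TGACGTCA, the full cyclic AMP response element, shown with the end of the H4 element in capitals.
H4c8, plus strand, chr13:23530895-23531044: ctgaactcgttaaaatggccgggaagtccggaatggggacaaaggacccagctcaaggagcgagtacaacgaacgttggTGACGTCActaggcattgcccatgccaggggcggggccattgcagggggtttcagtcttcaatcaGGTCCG
These letters were noticed after the sequence had been seen. They were in 3 of 59 histone windows (5.08%; H4c8, H2ac11 and H2bc11) and in 1.79% of all windows. The other 2 genes share 1 stretch between their starts, and their log2 fold changes were 0.14 for H2ac11 and -0.36 for H2bc11, in whose sequence, printed further on, the palindrome stands in lower case. A match of letters is a description of the window and not evidence of a bound factor.

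The rest of the H4 class moved both ways without a call. H4c9 (Hist1h4i) was at 8.40, 8.59, 8.40 and 8.63 in EV and 8.09, 8.34, 8.31 and 8.33 in L63RhoA. These groups were apart, but narrowly, and the log2 fold change was -0.24 (SE 0.098, adjusted p 0.176). H4c6, H4c11, H4c12 and H4c18 had log2 fold changes of -0.20 to -0.04, with overlapping groups in each. H4c2 was at -0.30, also with overlapping groups, but its probe lay near background and was detected on 3 EV arrays and 1 L63RhoA array.

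H4c14, H4c4 and H4c3, at 0.55, 0.50 and 0.39, had the highest log2 fold changes of all 51 histone genes, none of them called, and H4c14 and H4c4 were, of the 51, the only genes whose L63RhoA arrays all lay above the EV arrays. H4c14 (Hist2h4) was at 4.39, 4.46, 4.86 and 4.75 in EV and 5.003, 5.22, 5.15 and 5.27 in L63RhoA. Its probe was detected on 2 of the EV arrays and on all 4 L63RhoA arrays, so the EV level was at the edge of detection (SE 0.12, adjusted p 0.0719). H4c4 (Hist1h4d) was at 4.50, 5.06, 4.87 and 4.76 in EV and 5.12, 5.46, 5.22 and 5.37 in L63RhoA, and was detected on 3 and 4 arrays (SE 0.13, adjusted p 0.0934). H4c3 (Hist1h4c) had overlapping groups, with 5.34 on EV replicate 3 above 5.20 on L63RhoA replicate 3 (adjusted p 0.129). Values this close to background depend on its correction, and without one the log2 fold change of H4c14 was 0.16 (adjusted p 0.11). All 3 were called without EV replicate 3 and with array weights, and H4c14 and H4c4 also without L63RhoA replicate 1.

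H2B was the class with the most uniform direction. Of its 10 tested genes, 9 had a log2 fold change below 0 (over all genes 47.8% did), 5 of them with a 95% interval below 0 and none with one above, where 10.7% and 13.7% of all genes had such intervals. The count was also 9 of 10 in each of the other settings with 10 H2B entries, and it was 9 of 11 with detection on at least 1 array, 12 of 14 with no detection filter and 10 of 11 with probes in place of genes. The median over the 10 genes of each array's deviation from the EV mean was -0.08, -0.02, 0.05 and 0.0046 for EV replicates 1 to 4 and -0.33, -0.10, -0.28 and -0.25 for L63RhoA replicates 1 to 4. The EV and L63RhoA arrays did not overlap on that summary, but narrowly, with L63RhoA replicate 2 at -0.0969 and EV replicate 1 at -0.0794. Because deviations are taken from the EV mean, the EV arrays lie around 0 by construction. Since H2B genes are close in sequence, a probe may read more than 1 of them, and the 10 values are not 10 independent measurements.

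H2bc8 (Hist1h2bg) was the H2B gene that was called. It was at 6.84, 7.09, 7.04 and 6.98 in EV and 6.51, 6.42, 6.57 and 6.59 in L63RhoA, and the lowest EV array, replicate 1, was still above every L63RhoA array. The log2 fold change was -0.47 (SE 0.090), or 1.38-fold lower (95% interval 1.20 to 1.59), with an adjusted p of 0.048. Without a further background correction the log2 fold change was -0.27 (adjusted p 0.037). H2bc8 passed in 11 of 23 other settings, and the adjusted p when 1 array was left out ran from 0.022 to 0.18.

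H2bc11 (Hist1h2bj) missed the threshold with groups that were further apart for their spread. It was at 11.18, 11.26, 11.15 and 11.18 in EV and 10.81, 10.87, 10.85 and 10.81 in L63RhoA. The SDs were 0.045 and 0.031, and the log2 fold change was -0.36 (SE 0.078, adjusted p 0.0686). This gene passed with the authors' processed values, without the detection filter, with a variance trend, with array weights, with an unmoderated test and without EV replicate 3 or L63RhoA replicate 1.

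H2bc4 (Hist1h2bc) had the second lowest H2B value, at -0.43 (SE 0.14, adjusted p 0.135), but its groups overlapped. It was at 12.02, 12.46, 12.17 and 12.52 in EV and 12.21, 11.77, 11.72 and 11.77 in L63RhoA, so that L63RhoA replicate 1 lay among the EV arrays. Its other probe gave -0.84 (SE 0.22, adjusted p 0.10 over probes). H2bc14 and H2bc7 were at -0.28 and -0.23, and H2bc7 (Hist1h2bf) also had groups apart, with 11.55 to 11.69 in EV and 11.26 to 11.44 in L63RhoA (adjusted p 0.151). H2bc12, H2bc15, H2bc9 and H2bc18 lay between -0.20 and -0.16 with overlapping groups. H2bc6 (Hist1h2be) was the exception at 0.20 (SE 0.13, adjusted p 0.358), with an interval of -0.09 to 0.49.

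**Figure D4:**
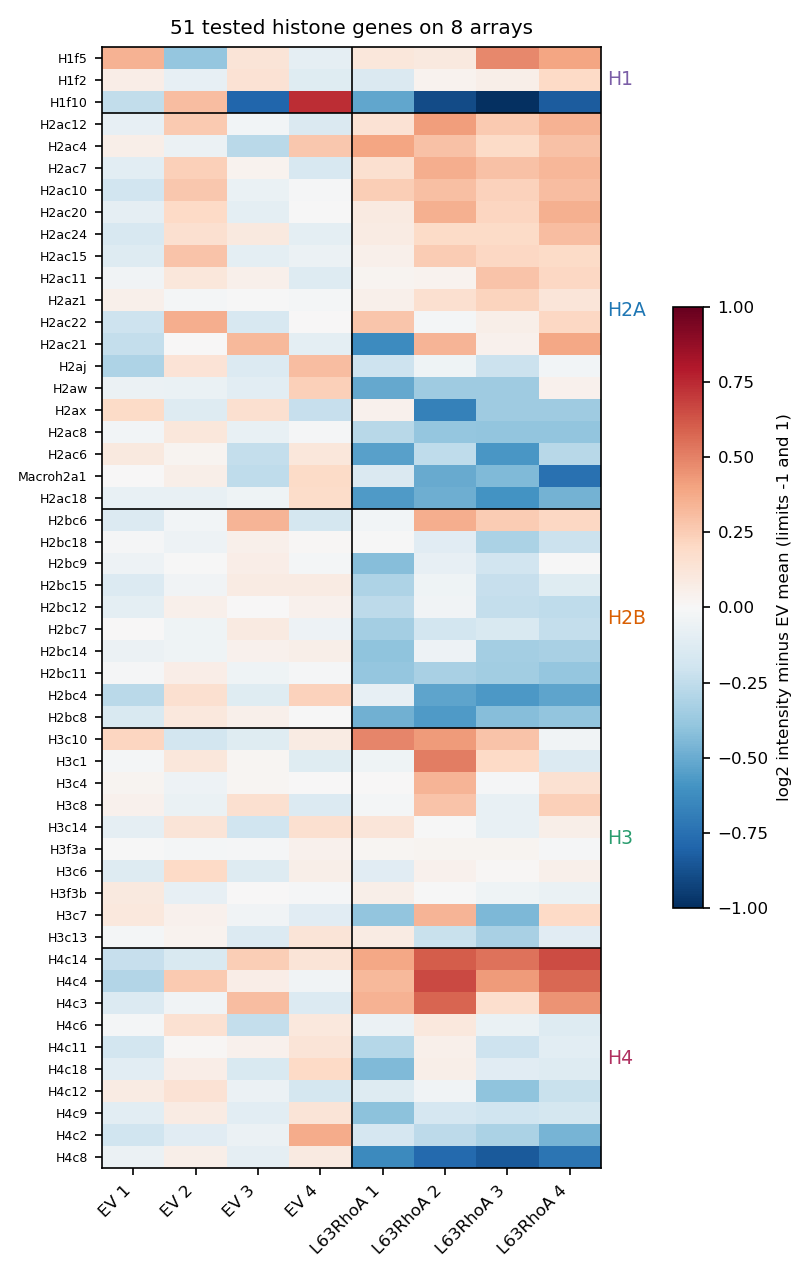
Log2 intensity of the 51 tested histone genes (rows, by class and fold change) on each array (columns), as the difference from the gene's EV mean; red is above and blue below, with colours limited at -1 and 1. The H2B block is mostly blue on the 4 L63RhoA arrays, whereas the upper H2A rows are red and the lower ones blue.

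H2A divided into a larger group above 0 and a smaller one below. Of 14 tested Hist genes for H2A, 10 were above 0 and 4 below, and the 95% interval lay above 0 for 5 (13.7% of all genes) and below 0 for 4 (10.7%). The 4 included H2aw, whose probe passed the filter only through its EV arrays (4 EV and 1 L63RhoA). The 5 with an interval above 0 were H2ac4, H2ac7, H2ac10, H2ac12 and H2ac20. Their log2 fold changes were 0.25 to 0.29 and their adjusted p 0.15 to 0.17, so none was called. The H2ac4 probe lay near background and was detected on 3 EV and 4 L63RhoA arrays. H2ac12 (Hist1h2ah), the highest, was at 9.27, 9.61, 9.32 and 9.21 in EV and 9.50, 9.77, 9.62 and 9.70 in L63RhoA (SE 0.11, adjusted p 0.153). EV replicate 2 lay within the L63RhoA range there, and it was also the highest EV array for H2ac7, H2ac10, H2ac15, H2ac20 and H2ac24. These probes moved alike on single arrays, and whether they read the same transcripts was not tested.

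On the other side H2ac18 (Hist2h2aa1), an H2A gene of the chromosome 3 cluster, fell. It was at 8.14, 8.14, 8.17 and 8.40 in EV and 7.64, 7.72, 7.61 and 7.74 in L63RhoA, and every L63RhoA array lay below every EV array, of which replicate 4 was the highest. The log2 fold change was -0.53 (SE 0.091), or 1.44-fold lower (95% interval 1.26 to 1.66), with an adjusted p of 0.032. It passed in 13 of 23 other settings, and the adjusted p when 1 array was left out ran from 0.018 to 0.14. H2ac18 has a near-identical neighbour, H2ac19 (known as Hist2h2aa2), which had no probe named for it, so the value may belong to either gene.

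H2ac8 and H2ac6 were also below 0 with groups apart, though not called. H2ac8 (Hist1h2ae) was at 6.98, 7.13, 6.93 and 6.996 in EV and 6.73, 6.62, 6.62 and 6.62 in L63RhoA, a log2 fold change of -0.36 (SE 0.084, adjusted p 0.0789). H2ac6 (Hist1h2ac) was at 5.42, 5.35, 5.09 and 5.44 in EV and 4.79, 5.07, 4.74 and 5.05 in L63RhoA, a log2 fold change of -0.41 (SE 0.12, adjusted p 0.107). In H2ac6 the lowest EV array, at 5.09, was barely above the highest L63RhoA array, at 5.07. H2aw (Hist3h2a) was at -0.30 (adjusted p 0.195) and was detected on all 4 EV arrays and 1 L63RhoA array.

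H2A and H2B genes often lie head to head and share the stretch between their starts, which allowed 6 neighbouring pairs with both genes tested to be set side by side. H2ac8 and H2bc8 were both below 0, at -0.36 and -0.47, as were H2ac6 and H2bc4, at -0.41 and -0.43. In the other 4 pairs the H2A gene was above 0 and the H2B gene below. H2ac12 and H2bc12 were at 0.29 and -0.20, H2ac7 and H2bc7 at 0.29 and -0.23, H2ac15 and H2bc15 at 0.18 and -0.18, and H2ac11 and H2bc11 at 0.14 and -0.36. No pair had an H2B gene above 0, and the difference between the genes of a pair was not tested.

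**Figure D5:**
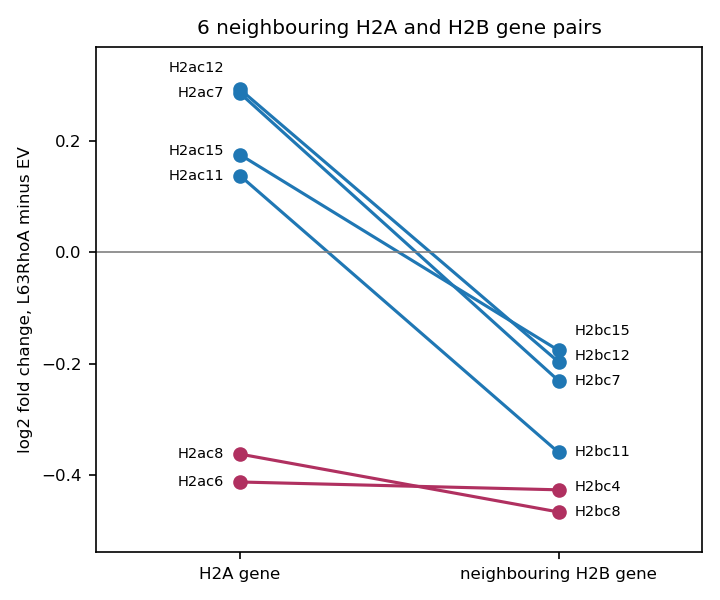
Log2 fold change (L63RhoA minus EV, vertical axis) of 6 neighbouring H2A and H2B genes, joined by lines. Both genes are below 0 in the pairs H2ac8 with H2bc8 and H2ac6 with H2bc4, and the H2A gene is above 0 and the H2B gene below in the other 4.

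The sequences before the H2B starts are printed for a pair in which both genes were below 0 and for 2 pairs in which they were not. Each is 200 bases on the H2B strand, RefSeq on GRCm38.p6. The octamer ATTTGCAT, a known element of H2B promoters, and the CCAAT box are in capitals, the latter as CCAAT or, on the other strand, ATTGG. The capitals do not overlap.
H2bc8, plus strand, chr13:23571200-23571399: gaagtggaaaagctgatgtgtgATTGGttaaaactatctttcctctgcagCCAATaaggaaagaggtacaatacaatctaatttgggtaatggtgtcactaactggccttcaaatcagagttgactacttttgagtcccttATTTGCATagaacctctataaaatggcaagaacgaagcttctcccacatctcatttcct
H2bc12, plus strand, chr13:22035621-22035820: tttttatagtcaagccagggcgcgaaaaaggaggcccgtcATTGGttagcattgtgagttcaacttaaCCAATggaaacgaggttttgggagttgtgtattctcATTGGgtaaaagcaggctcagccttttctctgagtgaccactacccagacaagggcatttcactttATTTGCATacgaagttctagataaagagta
H2bc11, plus strand, chr13:22042998-22043197: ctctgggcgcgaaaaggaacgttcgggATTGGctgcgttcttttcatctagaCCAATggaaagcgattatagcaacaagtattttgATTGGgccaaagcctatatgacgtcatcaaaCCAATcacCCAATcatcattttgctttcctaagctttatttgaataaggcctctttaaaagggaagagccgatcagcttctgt
The octamer in this exact form was in 7 of 12 H2B windows (58.3%), against 1.74% of all windows, and CCAAT was in 12 of 12, against 37.4%. Among 9 tested H2B genes with a window, the 5 with the octamer had log2 fold changes from -0.47 to 0.20 and the 4 without it from -0.36 to -0.17. H2bc8 and H2bc12 hold the octamer and H2bc11 does not, and all 3 were below 0.

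For H2ac18 the 150 bases before the start (GRCm38.p6) hold the CCAAT box on either strand, in capitals, and no exact octamer.
H2ac18, plus strand, chr3:96245347-96245496: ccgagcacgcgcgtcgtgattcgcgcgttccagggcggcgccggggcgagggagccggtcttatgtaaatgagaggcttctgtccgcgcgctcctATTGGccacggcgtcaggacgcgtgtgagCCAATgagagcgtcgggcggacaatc
The CCAAT box was in 17 of 19 H2A windows and the octamer in 7 of 19, and the tested H2A genes with the octamer ran from -0.41 to 0.29 on the log2 fold change scale. Of the 6 tested H2A genes with the octamer, H2ac6, H2ac8 and H2aw were below 0 and H2ac4, H2ac12 and H2ac20 above.

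H3 was the class with the smallest changes. None of its 10 tested genes was called or passed at an unadjusted p under 0.05, and 5 had log2 fold changes within 0.1 of 0. H3c10 (Hist1h3h) was highest at 0.29 (SE 0.13, adjusted p 0.213), with a probe detected on 1 EV and 3 L63RhoA arrays, and H3c13 (Hist2h3b) lowest at -0.14 (SE 0.11, adjusted p 0.413). The 95% intervals of the 10 genes reached from -0.46 to 0.59, so the precision leaves room for changes of that size. The genes for the replacement histone H3.3, which is laid down outside replication, had values close to 0. H3f3b was at 12.39, 12.21, 12.30 and 12.29 in EV and 12.36, 12.30, 12.26 and 12.23 in L63RhoA, a log2 fold change of -0.01 (95% interval -0.20 to 0.17). H3f3a was at 0.02 (95% interval -0.15 to 0.18), with 11.24 to 11.31 in EV and 11.26 to 11.29 in L63RhoA. H3c14 (Hist2h3c1) had probes that disagreed, at 0.03 and, for its other probe, -0.36 (SE 0.12, adjusted p 0.14 over probes).

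Of the linker histones, H1f2 and H1f5 had small positive values and H1f10 a large negative one with wide error. H1f2 (Hist1h1c) was at 0.04 (SE 0.10, 95% interval -0.19 to 0.26), with 11.67 to 11.93 in EV and 11.64 to 11.99 in L63RhoA. H1f5 (Hist1h1b) was at 0.27 (SE 0.16, adjusted p 0.296). H1f10 (H1fx), the replication-independent linker histone H1x, had the lowest log2 fold change of all 51 genes at -0.84 (SE 0.28, adjusted p 0.13). It was at 6.55, 7.10, 6.00 and 7.53 in EV and 6.28, 5.91, 5.67 and 5.97 in L63RhoA. EV replicates 2 and 4, the arrays with the lowest mean signal, were highest for this gene, and EV replicate 3 lay inside the L63RhoA range. Without these arrays the log2 fold change was -0.32 (adjusted p 0.63), and without EV replicate 4 alone it was -0.60 (adjusted p 0.28). Without a further background correction it was -0.46 (adjusted p 0.13), and H4c8, at -0.64, was then lower. The other H1f10 probe gave -0.50 (SE 0.15, adjusted p 0.12 over probes). H1f10 was called without EV replicate 3, with median scaling and with array weights.

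The H2A variants gave no call either. Macroh2a1 (H2afy), the large variant with a macro domain found on repressed chromatin, was at 8.89, 8.94, 8.62 and 9.07 in EV and 8.73, 8.37, 8.44 and 8.13 in L63RhoA. EV replicate 3 and L63RhoA replicate 1 crossed, and the log2 fold change was -0.46 (SE 0.14, adjusted p 0.113). H2ax (H2afx), which is phosphorylated at DNA breaks, was at -0.34 (SE 0.15, adjusted p 0.211), with 7.65 to 8.07 in EV and 7.20 to 7.92 in L63RhoA. H2az1 (H2afz), for the H2A.Z found at promoters, was at 0.14 (SE 0.081, adjusted p 0.309), with 11.89 to 11.96 in EV and 11.96 to 12.13 in L63RhoA. H2aj was at -0.12 (adjusted p 0.58).

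Genes that process, chaperone or deposit histones were read from a fixed list of 42, of which 27 could be tested. None was called. Without adjustment, 4 passed above 0 and 2 below at p under 0.05, where 13.7% and 10.7% of all genes did. The median log2 fold change was -0.03. Chaf1a, the large subunit of the chromatin assembly factor that deposits H3 and H4 at forks, was at -0.47 (SE 0.13, adjusted p 0.10), and Asf1b, a chaperone of H3 and H4, at 0.41 (SE 0.12, adjusted p 0.11). Ep400, an ATPase of the complex that places H2A.Z, was at 0.51 (SE 0.14, adjusted p 0.11). For Slbp, whose protein binds the stem-loop of replication-dependent histone mRNAs, the only probe was not detected on any array, so its level could not be followed.

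Since the stem-loop mRNA of replication-dependent histone genes follows S phase, the lists for S phase and mitosis are given beside the histone values. The labelling kit primes on poly(A), and whether the values of the Hist genes follow that mRNA was not tested. Of 24 tested S phase genes none was called. Without adjustment, 3 passed above 0 and 3 below at p under 0.05 (13.7% and 10.7% of all genes), around a median of -0.01. The summed level of the 25 S phase genes with a probe, Pola1 without detection among them, ran from 9810 to 10300 on EV arrays. On L63RhoA arrays it ran from 9840 to 10700. Lig1 (DNA ligase 1) was at 0.52, Rrm1 (a ribonucleotide reductase subunit) at -0.45 and Cdc45 (of the replicative helicase) at 0.28, with adjusted p of 0.11, 0.14 and 0.16. Of 6 tested mitotic genes none was called, with Plk1 at 0.75, Cdk1 at -0.24 and Top2a at -0.25, and adjusted p of 0.16, 0.15 and 0.20. The part of the cell cycle in the histone values was not tested.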

How the data were processed

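The group of each array was taken from its sample record. Signals were extracted by the authors with GenomeStudio (version not given in the sources used here), and the methods name a variance stabilizing transformation, quantile normalization and permutation p-values. The deposited intensities are linear, 75.2 to 22204, with a deposited detection p-value per probe and array. The authors' table of processed log2 values equalled the log2 of quantile normalized intensities. Here, neqc in limma 3.58.1 (R 4.3.3) corrected the background, with an offset of 16, and applied quantile normalization. A probe entered if its detection p-value was below 0.05 on 4 or more of the 8 arrays, which left 12349 probes and 8360 genes, and a gene's brightest probe over the 8 arrays stood for it. L63RhoA was compared with EV by limma (lmFit and eBayes, two-sided), adjusted by Benjamini-Hochberg over all 8360 genes. The number of arrays limits the precision. The fit was tested on simulated data.

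Symbols came from the platform annotation (1 symbol for 23978 of 25697 probes, none for 1719), updated by gene identifier through RefSeq for GRCm38.p6. Promoter windows were matched for 59 of 65 genes, all but H2ax, H2bc4, H2bu1-ps, H3c1, H3c7 and H4c14. Probe sequences were not used here, so sharing of a probe between near-identical genes was not checked. Members, lists and tests were chosen with earlier results of these data known. Genes named in full were those called, those with the smallest p, highest mean, largest rise or largest fall of a class, and those whose probes disagreed. Other members, and the motif TGACGTCA, were described after their values or letters were seen.

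Alternatives changed the input (the authors' processed values, no background correction, median scaling) and the detection filter. They also changed the estimate of spread (a variance trend, array weights, no moderation) and the model (a block for the replicate number). The summary of genes with several probes was varied too (their mean, or each probe by itself). The authors' processed values and no background correction gave the same values, and counts of settings include both. Each array was also left out in turn, and EV replicates 2 and 4 together, the last chosen after seeing the data.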

Additional observations from a re-analysis of the deposited data

Results flagged for a closer look

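Among 15 histone genes described in full, 30 groups of 4 arrays were examined for an array far from the other 3, and 2 stood out, where chance gives about 1 in 20. H2ac18 was at 8.40 on EV replicate 4, with the nearest EV array at 8.17 and the lowest at 8.14. H2bc4 was at 12.2 on L63RhoA replicate 1, with the nearest L63RhoA array at 11.8 and the lowest at 11.7.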

How the results depend on the processing

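The 59 calls over all genes became 116 with the authors' processed values or without background correction, 139 with a variance trend and robust estimation, 2098 with array weights, 27 with the unmoderated t-test, 17 to 1260 with 1 array left out and 7 without EV replicates 2 and 4. The highest counts came without L63RhoA replicate 1 (1260) and without EV replicate 3 (917). The 3 histone calls became 14 with array weights (5 higher, 9 lower), 1 to 11 with 1 array left out and 0 without EV replicates 2 and 4, where H4c8 was at -0.67 (adjusted p 0.091). With the replicate number as a block, 18 genes and 1 histone gene, H4c8, were called. The deviations of arrays with the same number correlated at -0.0985, -0.218, 0.269 and -0.228. With 4 arrays per group, these values cannot settle whether the numbers pair the arrays. The H1 median became -0.40 with detection on all 8 arrays and -0.23 over probes, and the H3 median 0.093 with median scaling, where the median of all genes was 0.05. The variant median became -0.0633 with the authors' values or without background correction, -0.0685 without the detection filter, -0.227 to -0.02 with 1 array left out and -0.062 without EV replicates 2 and 4. H1f2 ran from -0.0178 (without L63RhoA replicate 4) to 0.0964 with 1 array left out, was -0.0052 without EV replicate 4 and turned to -0.0673 without EV replicates 2 and 4. H3c14 turned to -0.0269 with array weights, -0.166 as the mean of its probes, and ran from -0.0403 (without EV replicate 3) to 0.0793 with 1 array left out. H3f3b turned to 0.0055 with median scaling and ran from -0.0424 to 0.0176 (without EV replicate 1) with 1 array left out. The causes were not tested. The H2B, H2A and H4 medians kept their sign in every setting run. The H4 median was -0.0464 without EV replicates 2 and 4, -0.075 to -0.214 with 1 array left out (closest to 0 without L63RhoA replicate 1), -0.0894 with median scaling and -0.0979 without background correction, where the H2A median was 0.0876.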
